A study of Mus musculus with 15 samples.

Results

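The sirtuins are the NAD+-dependent deacylases of mammalian cells, and the family in mouse is encoded by 7 genes, Sirt1 to Sirt7. All 7 were present among the 16154 genes of the deposited count table and all 7 are described here, with no selection on their values. They were measured in haematopoietic stem cells (HSC) sorted from bone marrow as Lin-Sca-1+cKit+CD150+CD48- cells, 1 library per mouse and 5 libraries per group, or 15 libraries in all. The Young group came from C57BL/6 mice of 6 to 12 weeks. The Aged group came from C57BL/6 mice of 20 to 24 months. The Aged+NR group came from mice of that same aged range which drank water with nicotinamide riboside (NR, a precursor of NAD+) at 3 mg/ml for 2 months, while the other two groups drank water without NR. No young mice on NR were among these libraries. The mice carried no engineered allele by the labels, and all were given as female.

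Sirtuins remove acetyl and other acyl groups from lysines and consume NAD+ in each reaction, so their activity depends on NAD+ as well as on protein amount. SIRT1, SIRT6 and SIRT7 act mainly in the nucleus, SIRT2 mainly in the cytosol, and SIRT3, SIRT4 and SIRT5 in mitochondria. In HSC, SIRT1, SIRT2, SIRT3, SIRT6 and SIRT7 are all known from mouse genetics to bear on stem cell maintenance, with SIRT3 and SIRT7 linked to mitochondrial stress. The libraries measured transcripts only, not protein, NAD+ or acetylation. In bulk RNA from sorted cells, fewer cells that express a gene and less of its RNA per cell cannot be told apart.

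Total counts per library ranged from 764119 to 13318989, with group medians of 2685764 in Young, 6007460 in Aged and 3162434 in Aged+NR. The shallowest library was Aged replicate 2 and the deepest was Aged replicate 3. Levels are given as CPM, counts scaled to library sizes adjusted by TMM (trimmed mean of M values), except that sums of marker and Y-linked genes and the values of single marker genes use the library totals. All 11 HSC markers were measured and none was at 0 throughout a group, and their summed level was 1716 to 2093 CPM in Young, 1794 to 2218 in Aged and 1771 to 2384 in Aged+NR. Single members of the list differed more than this sum, with Ly6a (Sca-1) at 97.1 to 159 CPM in Young, 233 to 376 in Aged and 212 to 358 in Aged+NR, and Slamf1 (CD150) at 30.4 to 54.8, 64.4 to 78.4 and 45.8 to 64.2 CPM. Of 31 markers of mature blood cells 29 were measured, and their summed level was 867 to 11817 CPM in Young, 7922 to 11433 in Aged and 636 to 1460 in Aged+NR. Among the Aged+NR libraries 1 of the 29 was at 0 throughout, and none was in the other groups. Young replicate 3, with 11817 CPM, was the only young library above the lowest aged one. The sum of 4 Y-linked genes was 104 CPM in Young replicate 1 and 108 CPM in Young replicate 5, against 0.757 to 3.16 CPM elsewhere. The female marker Xist was at 436 and 482 CPM in these libraries and at 296 to 919 CPM elsewhere. The Y-linked counts go against a label of female alone, and whether these samples held material of both sexes was not tested.

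In the 3 comparisons of the 7 genes, 2 of 21 tests passed an adjusted p under 0.05. Sirt1 was lower in Aged than in Young HSC, and Sirt3 was higher in Aged+NR than in Aged HSC. Sirt2, Sirt4, Sirt5, Sirt6 and Sirt7 passed in no comparison, and no sirtuin passed between Aged+NR and Young. The 3 comparisons share libraries, so their values for one gene are not independent of each other.

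**Figure D1:**
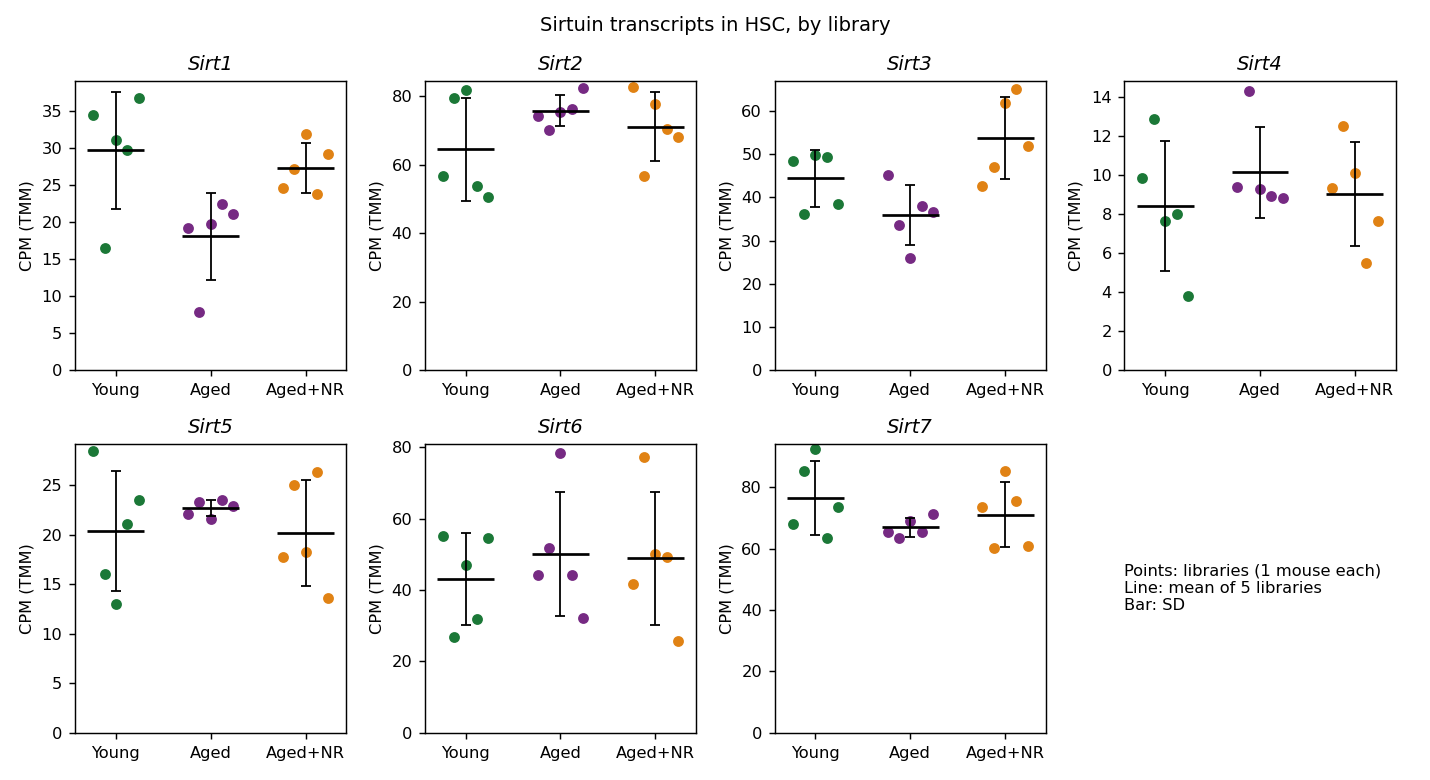
Level of each sirtuin transcript in CPM (TMM-scaled, vertical axes starting at 0) in the 5 libraries of the Young, Aged and Aged+NR groups. Points are libraries in replicate order, lines are group means and bars are SD. The aged points of Sirt1 lie between 7.78 and 22.4 CPM, below all 5 Aged+NR points, and those of Sirt2, Sirt5 and Sirt7 lie close together.

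Sirt1, the nuclear deacetylase of p53, FOXO factors and histones, lies on chromosome 10 at 63319005-63381704 of GRCm38, minus strand, as ENSMUSG00000020063. Its RefSeq start site at 63339035 lies well inside that GENCODE interval. The sequence before this site is shown because Sirt1 is the sirtuin lower with age and because E2f1, a known activator of Sirt1 transcription, is described further on. It is the 250 bases before the start (chr10:63339036-63339285, minus strand, RefSeq promoter sequence on GRCm38.p6), 5′ to 3′, with the E-box CACGTG and the E2F core GCGGGA, on either strand, in capitals.
Sirt1 promoter: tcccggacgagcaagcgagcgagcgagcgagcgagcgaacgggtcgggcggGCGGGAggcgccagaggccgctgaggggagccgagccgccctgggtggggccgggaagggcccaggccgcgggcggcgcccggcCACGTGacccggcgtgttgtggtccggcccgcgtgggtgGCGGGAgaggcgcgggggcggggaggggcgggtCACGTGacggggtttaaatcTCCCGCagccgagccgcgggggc
The window held 2 E-boxes, which begin 115 and 43 bases before the start, and 3 E2F cores. In the same windows of the other 6 sirtuins there was no E-box, and 1 E2F core was found for Sirt4 and before 1 of the 2 RefSeq start sites of each of Sirt3 and Sirt6. The E-box reads the same on both strands and the motifs did not overlap each other. An E-box was found in 6.02% and an E2F core in 16.9% of the 32851 RefSeq promoters searched over the same length, whatever their base composition. These are matches of letters only, and no binding was measured. Any part of the motifs in the level of a sirtuin was not tested. The last 15 of the 250 bases fall in an exon of the GENCODE annotation.

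In Young HSC the Sirt1 level was 34.4, 16.5, 31.0, 29.7 and 36.7 CPM in replicates 1 to 5. In Aged HSC it was 19.2, 7.78, 19.7, 22.4 and 21.1 CPM. In Aged+NR HSC it was 24.6, 27.1, 31.9, 23.7 and 29.1 CPM. Young replicate 2 was the low exception among the young libraries and lay within the aged range, so the Young and Aged libraries overlapped, while all 5 Aged+NR libraries lay above the highest aged one. The mean was 29.7 ± 7.86 CPM in Young, 18.0 ± 5.87 in Aged and 27.3 ± 3.34 in Aged+NR (SD, n = 5 each).

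Sirt1 fell with age by a log2 fold change of -0.63 (SE 0.21, 95% interval -1.06 to -0.20), or to 0.645-fold, with an adjusted p of 0.0361 by edgeR's quasi-likelihood test. It was the only 1 of the 7 sirtuins called between Aged and Young, where 19.3% of all genes were called, 9.68% higher and 9.63% lower in Aged, and 33.2% had an unadjusted p under 0.05. All 5 aged libraries lay below the young median. Among the 5 young and 5 aged libraries compared, the call was lost when any 1 of 8 was left out. The adjusted p was 0.0818, 0.0576, 0.0662 and 0.0999 without Young replicates 1, 3, 4 and 5 in turn. It was 0.0564, 0.0514, 0.0673 and 0.0525 without Aged replicates 1, 2, 3 and 5. Without both young libraries that held Y-linked counts the log2 fold change was -0.42 and the adjusted p 0.260. The summed mature cell markers were higher in the aged libraries than in 4 of the 5 young ones. The exception, Young replicate 3 at 11817 CPM of these markers, had a Sirt1 level of 31.0 CPM. Young replicate 2, with the lowest marker sum of the group at 867 CPM, had 16.5 CPM. The sum mixes cell types. Its erythroid part was 139 to 2741 CPM in Young, below all aged libraries at 2970 to 6537 CPM. Its neutrophil part was 23.6 to 5459 CPM in Young and 965 to 1597 CPM in Aged. The progenitor marker Flt3 was at 9.91 to 20.1 CPM in Young, 1.31 to 4.49 in Aged and 2.87 to 8.04 in Aged+NR, and the proliferation marker Mki67 had medians of 182, 84.0 and 115 CPM. Top2a had medians of 347, 215 and 268 CPM in the same order. Cd48, which the sort selected against, went the other way with age, with medians of 4.80, 24.3 and 4.02 CPM. Across all 4 progenitor and cycling markers, of which none was at 0 throughout a group, the summed level was 404 to 971 CPM in Young, 264 to 529 in Aged and 188 to 459 in Aged+NR. The part of the mature cell, progenitor and cycling markers in the Sirt1 difference was not tested.

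With NR, Sirt1 had a log2 fold change of 0.51 against Aged (SE 0.21, 95% interval 0.08 to 0.93). Its unadjusted p was 0.0227 and its adjusted p 0.128 by the same test, so it was not called, although the libraries did not overlap. Across all genes 3.65% had every Aged+NR library above every aged one. The call is reached with library totals in place of TMM sizes, with a log2 fold change of 0.65 and an adjusted p of 0.0484, where the median over all genes is itself 0.16. Against Young, the Aged+NR level of Sirt1 differed by a log2 fold change of -0.13 with an interval of -0.55 to 0.30 (adjusted p 0.802).

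SIRT6 guards chromatin and DNA repair and represses genes of glycolysis, and SIRT7 works mostly in the nucleolus. Sirt6 (chromosome 10, 81621785-81627797, minus strand) varied most between mice of the same group among the nuclear members. Its level was 26.9 to 55.1 CPM in Young with a median of 47.2, 32.1 to 78.3 in Aged with a median of 44.2, and 25.9 to 77.2 in Aged+NR with a median of 49.3. The 3 ranges shared the stretch from 32.1 to 55.1 CPM. The coefficient of variation was 30.2% in Young, 34.5% in Aged and 38.1% in Aged+NR, which was wider than the 9.14%, 8.68% and 8.15% that counting alone gives. The log2 fold change of Sirt6 was 0.22 with age (95% interval -0.34 to 0.77, adjusted p 0.614) and -0.04 with NR (interval -0.59 to 0.50, adjusted p 0.938). The interval with NR runs from 0.663-fold to 1.42-fold, so a change within that range is not excluded.

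Sirt7 (chromosome 11, 120618372-120625240, minus strand) had the highest mean CPM of the family over all 15 libraries, although Sirt2 had the higher mean in Aged (75.7 against 66.9 CPM) and in Aged+NR (71.2 against 71.0 CPM). It was at 68.1, 85.2, 92.5, 63.5 and 73.6 CPM in Young, at 65.3, 63.6, 68.9, 65.2 and 71.3 in Aged and at 73.4, 60.2, 85.2, 75.6 and 60.7 in Aged+NR. The aged libraries sat within the lower part of the young range. The log2 fold change was -0.19 with age (interval -0.45 to 0.07, adjusted p 0.306) and 0.08 with NR (interval -0.18 to 0.34, adjusted p 0.727), the narrowest intervals of the 7 genes. The first 124 exon bases at the 5′ end of Sirt7 are shared with the 3′ end of Mafg on the same strand, and reads there match both genes. Mafg, a small MAF transcription factor, had a log2 fold change of 0.24 with age (adjusted p 0.266).

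Sirt2, which deacetylates tubulin and other cytosolic proteins, lies on chromosome 7 at 28766735-28788661, plus strand. Its level was 56.8, 79.6, 81.7, 53.7 and 50.4 CPM in Young, 74.3, 70.1, 75.5, 76.3 and 82.5 in Aged and 82.8, 56.6, 77.8, 70.5 and 68.1 in Aged+NR. The young libraries fell into a pair at 79.6 and 81.7 CPM and a trio at 50.4 to 56.8 CPM, with the aged libraries between 70.1 and 82.5 CPM. The log2 fold change was 0.24 with age (interval -0.05 to 0.54, adjusted p 0.238) and -0.10 with NR (interval -0.39 to 0.20, adjusted p 0.704).

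Sirt3, the main mitochondrial deacetylase, whose targets include SOD2 and IDH2, lies on chromosome 7 at 140863666-140882309, minus strand. In Young HSC its level was 48.4, 36.2, 49.8, 49.3 and 38.6 CPM in replicates 1 to 5. In Aged HSC it was 45.2, 33.7, 26.0, 38.0 and 36.6 CPM, and in Aged+NR HSC 42.7, 47.1, 61.8, 65.0 and 52.0 CPM. Of the 5 Aged+NR libraries 4 lay above the highest aged one, and the groups met only at Aged replicate 1 and Aged+NR replicate 1. The mean was 44.5 ± 6.56 CPM in Young, 35.9 ± 6.97 in Aged and 53.7 ± 9.52 in Aged+NR (SD, n = 5 each).

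Sirt3 rose with NR by a log2 fold change of 0.57 against Aged (SE 0.16, 95% interval 0.24 to 0.91), or 1.49-fold, with an adjusted p of 0.0340 by edgeR's quasi-likelihood test. It was the only called sirtuin of 7 in this comparison, in which 8.07% of all genes were called, 3.88% higher and 4.18% lower in Aged+NR, and 25.1% had an unadjusted p under 0.05. The call was lost without Aged replicates 2, 3, 4 or 5 (adjusted p 0.0533, 0.101, 0.0529 and 0.0703 in turn) and without Aged+NR replicates 3 or 4 (adjusted p 0.0880 and 0.0948). The log2 fold change stayed between 0.47 and 0.68 whichever library was left out. With age, Sirt3 had a log2 fold change of -0.30 (interval -0.64 to 0.03, adjusted p 0.200), and between Aged+NR and Young of 0.27 (interval -0.06 to 0.60, adjusted p 0.401), neither of which was called. The summed mature cell markers separated the Aged from the Aged+NR libraries, at 7922 to 11433 against 636 to 1460 CPM, and their part in the differences of Sirt1 and Sirt3 was not tested.

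The 3′ end of Sirt3 needs care in these 3′ biased libraries. Its last 418 exon bases (140863666-140864083) overlap the 3′ part of Ric8a on the opposite strand, and the strand setting of the counting was not given in the sources used here. Ric8a, a chaperone of G protein alpha subunits, was at 68.0 ± 9.72 CPM in Aged and 78.6 ± 6.72 CPM in Aged+NR, with a log2 fold change of 0.19 and an adjusted p of 0.299. At its other end Sirt3 shares 342 exon bases with Psmd13, a proteasome subunit on the opposite strand, which had a log2 fold change of 0.00 and an adjusted p of 0.991. The smaller change of Ric8a in the same direction was therefore not called, and how reads in the shared bases were assigned was not tested.

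SIRT4 and SIRT5 have weak deacetylase activity, and SIRT5 is best known for removing succinyl, malonyl and glutaryl groups. Sirt4 (chromosome 5, 115478010-115484725, minus strand) had the lowest mean of the family, at 3.78 to 12.9 CPM in Young, 8.84 to 14.3 in Aged and 5.48 to 12.5 in Aged+NR. Its counts were 11 to 110 per library, and counting alone gave a coefficient of variation of 18.8% to 21.6%. The intervals of its log2 fold changes, -0.38 to 0.81 with age and -0.68 to 0.49 with NR, were the widest of the family, so changes within them are not excluded at this depth.

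Sirt5 (chromosome 13, 43365496-43395203, plus strand) was at 28.4, 16.1, 13.02, 21.04 and 23.5 CPM in Young, at 22.1, 23.4, 21.6, 23.5 and 22.9 in Aged and at 17.8, 25.04, 18.3, 26.3 and 13.6 in Aged+NR. The aged libraries lay much closer together than those of the other groups. The coefficient of variation was 3.63% in Aged against 29.7% in Young and 26.4% in Aged+NR, although counting alone gave 13.1%, 13.2% and 12.7%. Sirt7 and Sirt2 had the same feature, with 4.70% and 5.94% in Aged against 7.44% and 6.94% from counting alone. The counting figures for Aged are raised by the shallow Aged replicate 2. It had 18 Sirt5, 49 Sirt7 and 54 Sirt2 counts, against 114 to 255, 355 to 815 and 411 to 893 in the other aged libraries. A spread below the counting level can be reached with 5 libraries, and the difference in spread between groups was not tested. The log2 fold change of Sirt5 was 0.13 with age (interval -0.29 to 0.56, adjusted p 0.690) and -0.17 with NR (interval -0.58 to 0.25, adjusted p 0.645).

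**Figure D2:**
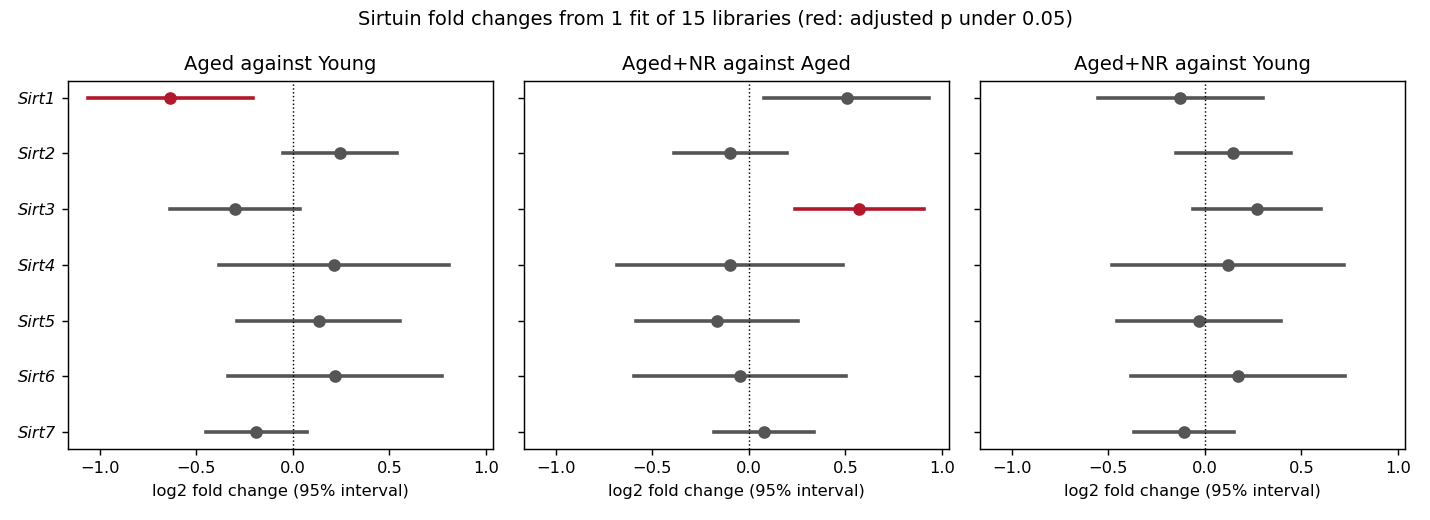
Log2 fold changes (horizontal axes) of the 7 sirtuins in the 3 comparisons, from 1 fit of 15 libraries. Points are estimates, bars 95% intervals, and red marks an adjusted p under 0.05. Sirt1 at -0.63 in Aged against Young and Sirt3 at 0.57 in Aged+NR against Aged are red, and no interval in Aged+NR against Young excludes 0.

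Between Aged+NR and Young none of the 7 sirtuins passed the quasi-likelihood test, in a comparison where 4.47% of all genes were called (2.56% higher and 1.91% lower in Aged+NR). None of the 7 had an unadjusted p under 0.05, against 18.0% of all genes. The count was also 0 with the likelihood ratio test, DESeq2 and limma-voom. Adjusted p ran from 0.401 for Sirt3 to 0.964 for Sirt5. Intervals were narrowest for Sirt7, from -0.37 to 0.15, and widest for Sirt4, from -0.48 to 0.72. They do not show that the levels in NR-treated and young HSC were equal.

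The summed level of the family was 287 ± 25.5 CPM in Young, 279 ± 12.5 in Aged and 301 ± 29.3 in Aged+NR (SD, n = 5 each), and the group ranges of 257 to 323, 265 to 299 and 257 to 335 CPM overlapped. The median log2 fold change of the 7 was 0.13 with age, -0.04 with NR and 0.12 between Aged+NR and Young, beside medians of -0.03, 0.02 and -0.00 over all 16154 genes. Sirt1 took 10.3% of the sirtuin counts in Young, 6.42% in Aged and 9.13% in Aged+NR, and Sirt3 took 15.5%, 12.9% and 17.8%. Sirt2 took 22.4%, 27.1% and 23.8%, Sirt7 26.7%, 23.9% and 23.6%, and Sirt6 14.9%, 17.8% and 16.0%. The shares of Sirt5 (7.18%, 8.13% and 6.67%) and Sirt4 (2.96%, 3.65% and 3.00%) were the smallest. A share moves when any other member moves, so no test was made on them.

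**Figure D3:**
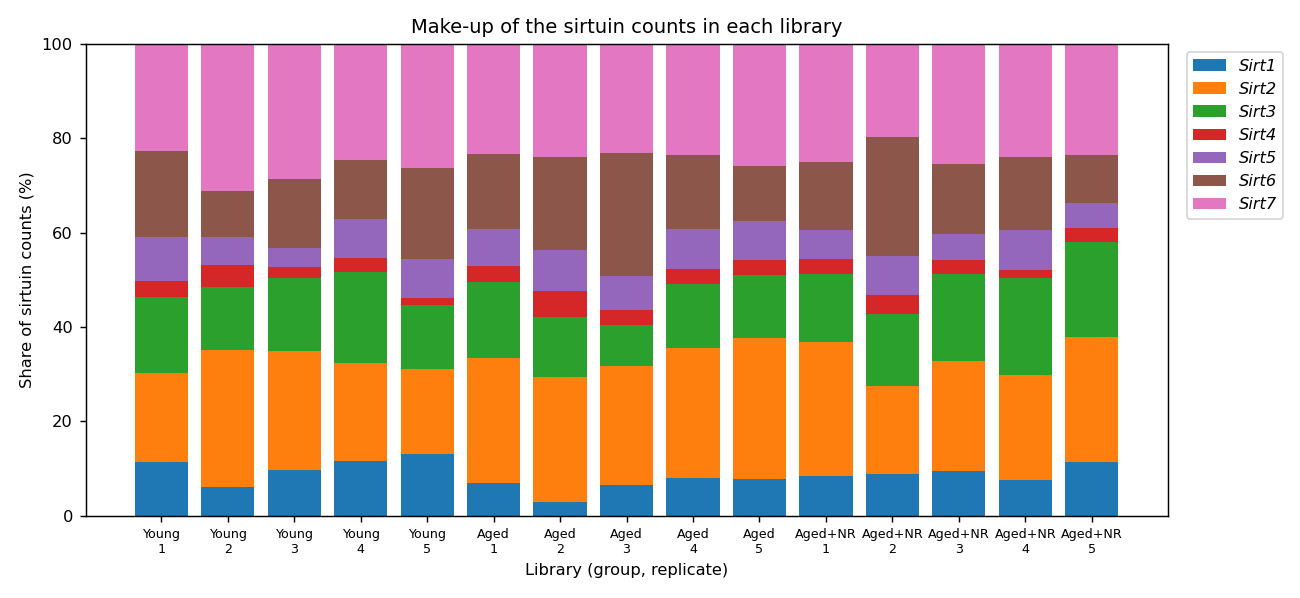
Share of the summed sirtuin counts taken by each gene (vertical axis, %) in each of the 15 libraries (horizontal axis, group and replicate). Sirt7 and Sirt2 form the largest blocks on average, and the Sirt1 block is lowest in Aged replicate 2 at 2.94% and highest in Young replicate 5 at 13.1%.

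By mean CPM over the 15 libraries the order was Sirt7 (71.5), Sirt2 (70.4), Sirt6 (47.4), Sirt3 (44.7), Sirt1 (24.996), Sirt5 (21.1) and Sirt4 (9.19). Sirt7 and Sirt2 could not be ordered, since Sirt7 was the higher in 8 of 15 libraries, nor could Sirt6 and Sirt3 (6 of 15) or Sirt1 and Sirt5 (9 of 15). Sirt2 exceeded Sirt6 in 12 libraries, Sirt3 exceeded Sirt1 in all 15, and Sirt5 exceeded Sirt4 in all 15. Per kilobase of merged exon the levels were 17.0 CPM for Sirt6, 14.0 for Sirt2, 13.9 for Sirt7, 7.48 for Sirt3, 4.69 for Sirt1, 3.83 for Sirt4 and 3.46 for Sirt5. On that scale Sirt6 had the highest mean and exceeded Sirt2 in 11 of 15 libraries, and Sirt4 and Sirt5 could not be ordered (9 of 15), although a 3′ biased library does not yield more reads from a longer transcript in proportion. Among all genes Sirt7 stood above 81.3% by mean CPM, Sirt1 above 58.3% and Sirt4 above 39.2%.

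Pairs of members were only loosely related across libraries. Pearson's r of log2 CPM between pairs of sirtuins over the 15 libraries ran from -0.58 for Sirt1 and Sirt4 to 0.52 for Sirt1 and Sirt3, and it includes the differences between groups and depths. Among 11237 genes searched, the pattern most like Sirt1 was that of Patl1 (r = 0.953, Spearman's rho 0.900), which takes part in mRNA decay, followed by Skiv2l (r = 0.947), a helicase of RNA decay. For Sirt3 these were Zmym3 (r = 0.920) and AC133496.1 (r = 0.913), for Sirt6 Tcf20 (r = 0.910) and Mtmr2 (r = 0.896), and for Sirt2 Grpel1 (r = 0.884) and Tuba1a (r = 0.883). The best matches were looser for Sirt7 (Bin1, r = 0.844, and Trpv2, r = 0.833), Sirt4 (Bcl2l11, r = 0.819, and AC171206.4, r = 0.781) and Sirt5 (Arhgef10l, r = 0.793, and Slfn5, r = 0.785). The highest of so many correlations is large by selection, and these values are a description only.

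Of 11 genes in the table that overlap a sirtuin or lie within 5 kb of one, 1 was called, in 1 of the 3 comparisons, beside 19.3% of all genes called with age, 8.07% with NR and 4.47% between Aged+NR and Young. Dnajc12, a co-chaperone whose start lies 739 bases from the outermost GENCODE start of Sirt1 on the opposite strand, was at 9.73 ± 1.03 CPM in Young and 19.7 ± 3.91 in Aged. It rose by a log2 fold change of 1.05 (adjusted p 0.00105), opposite to Sirt1. Herc4, on the other side of Sirt1, had a log2 fold change of -0.33 (adjusted p 0.113). Nfkbib, an inhibitor of NF-kappaB that shares 42 exon bases with Sirt2 on the opposite strand, had a log2 fold change of 0.49 with age (adjusted p 0.112).

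Of the regulators of sirtuins, 6 of 7 listed genes were measured and 1 was called with age, beside 19.3% of all genes. E2f1 fell from 25.01 ± 6.82 CPM in Young to 11.3 ± 4.85 in Aged, a log2 fold change of -1.10 (adjusted p 0.00442). With NR none of the 6 was called by edgeR's quasi-likelihood test, the likelihood ratio test, DESeq2 or limma-voom, and none had an unadjusted p under 0.05. Between Aged+NR and Young the count was likewise 0 by all 4 tests, with 1 gene at an unadjusted p under 0.05. The quasi-likelihood test called 8.07% of all genes with NR and 4.47% between Aged+NR and Young. In the same order 25.1% and 18.0% of all genes had an unadjusted p under 0.05. E2f1 was at 16.0 ± 3.11 CPM in Aged+NR. Of the 4 progenitor and cycling markers, Flt3, Mki67 and Top2a were also lower in Aged than in Young by their medians, and Cd48 was higher. Their part in the E2f1 difference was not tested. Ccar2, the SIRT1 inhibitor DBC1, was at 48.4 ± 11.3, 37.8 ± 3.48 and 45.2 ± 6.23 CPM in Young, Aged and Aged+NR, with no call. The median log2 fold change of the 6 was -0.10 with age and 0.10 with NR.

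Among 17 known SIRT1 substrates, all measured, 1 rose and 2 fell with age, a share near the 19.3% of all genes called. Stat3, the cytokine-activated factor, rose from 150 ± 5.42 to 210 ± 21.1 CPM (log2 fold change 0.48, adjusted p 0.00187). Ep300, a histone acetyltransferase, fell from 103 ± 31.9 to 53.8 ± 7.65 CPM (-0.91, adjusted p 0.000869), and Trp53, which encodes p53, from 162 ± 19.3 to 129 ± 6.88 CPM (-0.32, adjusted p 0.0305). None of the 17 was called with NR by the quasi-likelihood test, where 8.07% of all genes were called. At an unadjusted p under 0.05 there were 6, against 25.1% of all genes. The likelihood ratio test, DESeq2 and limma-voom each called 1. Between Aged+NR and Young, Stat3 was higher (log2 fold change 0.54, adjusted p 0.00155) and Hif1a, the hypoxia factor, lower (-0.48, adjusted p 0.0413). In that comparison 4.47% of all genes were called. The list's median was -0.07 with age and 0.06 with NR.

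Of the partners and substrates of SIRT2, SIRT6 and SIRT7, 18 of 19 were measured, and 0 rose and 2 fell with age, 1 rose and 0 fell with NR, and 0 rose and 2 fell between Aged+NR and Young, beside 19.3%, 8.07% and 4.47% of all genes called. With age DESeq2 called 5 of the 18 and limma-voom 3, and with NR DESeq2 called 2. Trim28 (KAP1, a co-repressor of retroelements) was at 154 ± 16.9 CPM in Young, 86.1 ± 10.5 in Aged and 152 ± 14.6 in Aged+NR. Trim28 fell with age, with a log2 fold change of -0.82 (adjusted p 4.22e-05), and rose with NR by 0.81 (adjusted p 0.000699). Its aged libraries overlapped neither of the other groups. Over all genes the Aged and Young libraries did not overlap for 12.4%, and 3.65% had every Aged+NR library above every aged one. The mature cell markers also separated the Aged from the Aged+NR libraries, and their part in the Trim28 difference was not tested. Kmt5a, the H4K20 methyltransferase, fell with age, with a log2 fold change of -0.55 (adjusted p 0.0161). Smarca5, a chromatin remodeller, was lower in Aged+NR than in Young by a log2 fold change of -0.34 (adjusted p 0.0479), as was Hif1a, which stands in both lists.

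Substrates of the mitochondrial sirtuins were measured for 20 of 21 genes, of which 2 rose and 3 fell with age, none was called with NR, and 1 rose and 1 fell between Aged+NR and Young. Of all genes 19.3% were called with age, 8.07% with NR and 4.47% between Aged+NR and Young. Acadl, the long-chain acyl-CoA dehydrogenase deacetylated by SIRT3, rose from 118 ± 12.3 to 167 ± 21.8 CPM with age (log2 fold change 0.52, adjusted p 0.0019) and was at 165 ± 5.94 CPM in Aged+NR. Aldh2 and Sdha, enzymes of aldehyde and succinate oxidation, had log2 fold changes of -0.44 (adjusted p 0.0132) and 0.29 (adjusted p 0.0337) with age. Acss1, the mitochondrial acetyl-CoA synthetase, was lower in Aged+NR than in Young by a log2 fold change of -0.69 (adjusted p 0.0251). With NR, 6 of the 20 had an unadjusted p under 0.05, against 25.1% of all genes. In this comparison 1 was called by the likelihood ratio test, 3 by DESeq2 and 1 by limma-voom. The list's median log2 fold change with NR was -0.05.

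None of the 11 measured genes of NAD supply, of 14 listed, was called in any comparison by the quasi-likelihood test. That test called 19.3% of all genes with age, 8.07% with NR and 4.47% between Aged+NR and Young. In the same order 33.2%, 25.1% and 18.0% of all genes had an unadjusted p under 0.05. With age 3 of the 11 had an unadjusted p under 0.05, and DESeq2 and limma-voom each called 1 and the likelihood ratio test 0. With NR and between Aged+NR and Young 1 gene each had an unadjusted p under 0.05, and the other tests called 0. Nampt, the rate-limiting enzyme of NAD+ salvage, was at 50.7 ± 4.38 CPM in Young, 62.4 ± 3.97 in Aged and 55.9 ± 10.3 in Aged+NR, with an adjusted p of 0.0851 with age although every aged library lay above every young one. Nmrk1, the kinase that phosphorylates NR, was at 13.7 ± 1.65, 9.83 ± 1.79 and 13.1 ± 1.498 CPM, with an adjusted p of 0.0773 with age and 0.165 with NR. Across all genes, the libraries of Aged and Young did not overlap for 12.4%.

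Of 18 other NAD+ consumers 17 were measured, and 2 rose and 2 fell with age, beside 19.3% of all genes called. Cd38, the NAD+ glycohydrolase, rose from 13.7 ± 2.54 to 51.0 ± 4.66 CPM with age (log2 fold change 1.88, adjusted p 0.000325). With NR it fell to 22.9 ± 11.8 CPM (-1.13, adjusted p 0.0247). This was the only call with NR among the 17 by the quasi-likelihood test, beside 8.07% of all genes called. The likelihood ratio test, DESeq2 and limma-voom each called 2 with NR. CD38 is also an antigen of several mature blood cells, and the mature cell markers moved the same way between these groups, and their part in the result was not tested. Tiparp, a mono-ADP-ribosyltransferase, fell with age, with a log2 fold change of -1.22 (adjusted p 0.000902). It was also lower in Aged+NR than in Young, by a log2 fold change of -1.15 (adjusted p 0.00395). Between those groups 4.47% of all genes were called. Parp9 rose with age by a log2 fold change of 0.59 (adjusted p 0.00185).

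The zinc-dependent deacetylases do not use NAD+. Of 11 members 3 were called lower and 0 higher with age, and 3 higher and 0 lower with NR. Over all genes 19.3% were called with age in either direction (9.63% lower), and 8.07% with NR (3.88% higher). None of the 11 was called between Aged+NR and Young, where 4.47% of all genes were called. There 2 had an unadjusted p under 0.05, against 18.0% of all genes, and the other tests also called 0. Hdac7 was at 52.2 ± 5.81 CPM in Young, 33.7 ± 5.34 in Aged and 49.2 ± 3.19 in Aged+NR, with log2 fold changes of -0.66 with age (adjusted p 0.00127) and 0.57 with NR (adjusted p 0.0117). Hdac6, the cytosolic tubulin deacetylase that shares this substrate with SIRT2, went from 18.2 ± 2.58 to 9.49 ± 1.59 and 15.4 ± 4.28 CPM (adjusted p 0.00417 and 0.0496). Hdac10, a polyamine deacetylase, went from 20.2 ± 7.79 to 12.7 ± 1.45 and 20.2 ± 2.48 CPM (adjusted p 0.0281 and 0.0453).

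**Figure D4:**
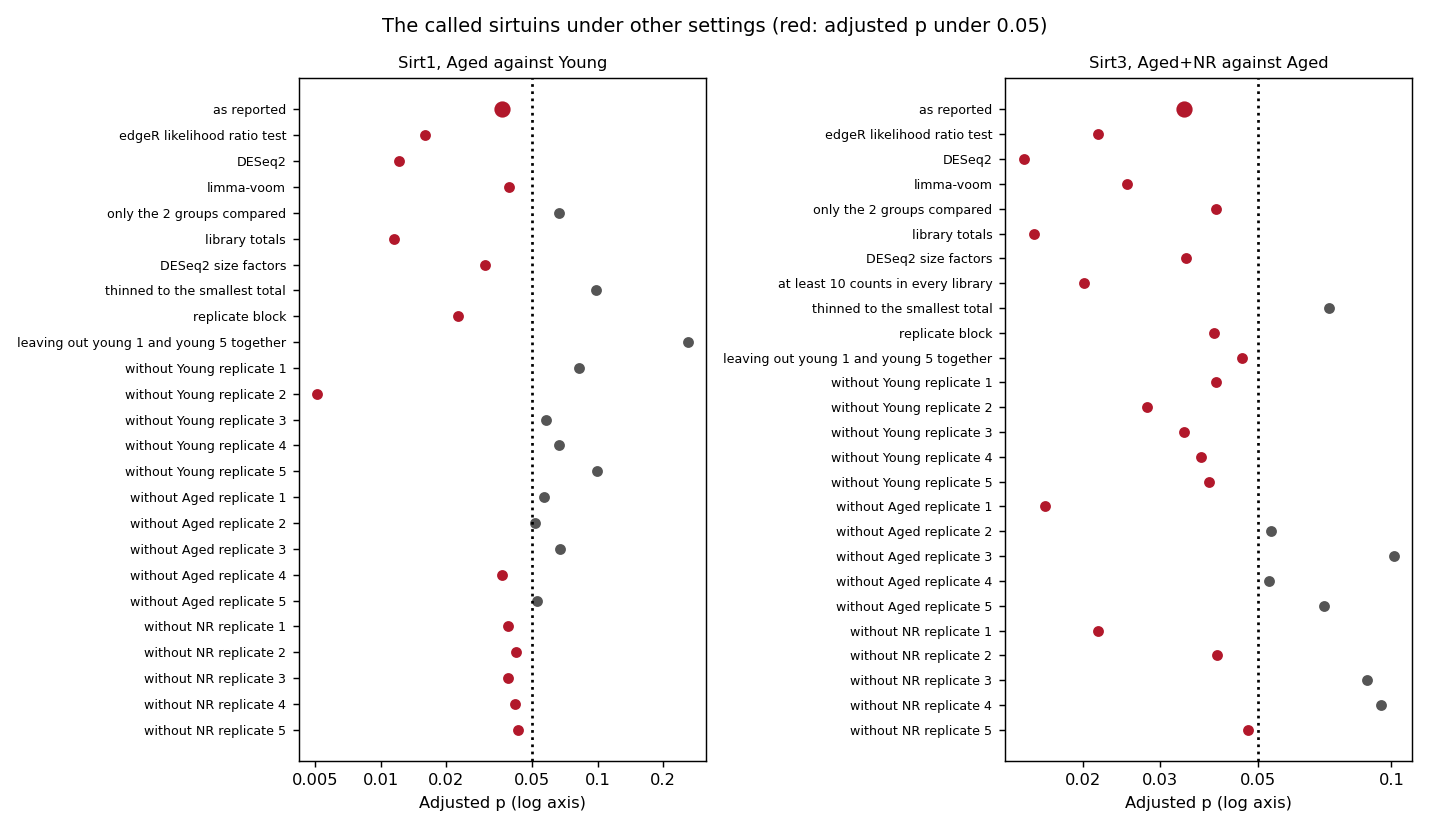
Adjusted p (horizontal log axes) of the 2 called sirtuin differences under each test, normalisation and set of libraries (vertical axis), with the threshold of 0.05 as a dotted line and values under it in red. Sirt1 ranges from 0.0051 without Young replicate 2 to 0.260 without Young replicates 1 and 5, and Sirt3 from 0.0147 with DESeq2 to 0.101 without Aged replicate 3.

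Counting each other test, normalisation, filter and set of libraries at the same threshold, Sirt1 was called with age in 13 of 24 fits, and its log2 fold change was below 0 in each of them. Sirt3 was called with NR in 18 of 25 fits, and its log2 fold change was above 0 in each of them. In 15 of the fits 1 library was left out, with Sirt1 called in 7 and Sirt3 in 9. For 5 of these 15 it was a library of the group not compared, and the call held each time. Among the compared libraries, the Sirt1 call held only without Young replicate 2 or Aged replicate 4. The Sirt3 call held only without Aged replicate 1 or Aged+NR replicates 1, 2 or 5.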

How the data were processed

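HSC of 15 mice were profiled by 3′ biased RNA-seq primed on poly(A), with unique molecular identifiers. The authors aligned reads to GRCm38 with STAR 2.4.2a (version from the submitters' processing notes), removed duplicates by identifier with Je, counted on exons of GENCODE M15 with featureCounts, dropped genes of low count and deposited whole-number counts per gene without normalisation. Intervals on single counts cover counting error only.

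Here edgeR 4.0.16 (R 4.3.3) was run on the counts as deposited: TMM sizes, all 15 libraries in 1 fit on group alone, quasi-likelihood tests, and p adjusted by Benjamini-Hochberg across the 16154 genes. Genes at an adjusted p under 0.05 were called. Alternatives were edgeR's likelihood ratio test (the study's test), DESeq2 1.42.0, limma-voom 3.58.1, fits of the 2 groups compared, library totals or DESeq2 size factors, a filter of 10 counts in each library, counts thinned to the smallest total, a replicate block, a threshold of 0.01, and libraries left out. The tests were checked on simulated data. Positions come from GENCODE M21 and promoters from RefSeq (GRCm38.p6), and tables were made with Python 3.11.15. Per-kilobase levels divide by merged exon length.

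Every sirtuin is named, with at most 3 called genes per list and comparison (smallest adjusted p), genes within 5 kb, and the 2 genes of highest r to each sirtuin (log2 CPM, prior count 2, mean of at least 10 counts, leaving out symbols of Gm and a number, ending in Rik, or with -ps). Ccar2, Nampt and Nmrk1 were added after their values were seen. Members and lists were chosen with earlier results of these data known. Replicate numbers were not used as pairs: deviations of same-numbered libraries correlated between -0.22 and 0.21 over 8444 genes. No libraries of a group were copies (chi-square per degree of freedom 3.21 to 17.5). By the study's account each library is 1 mouse. This was not tested for Young replicates 1 and 5, which held both Xist and Y-linked counts.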

Additional observations from a re-analysis of the deposited data

Results flagged for a closer look

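In the search of 21 sets of 5 libraries (7 sirtuins in 3 groups) for a library far from the others of its group, 2 stood out, and chance gives about 1 in 20 such sets. Both are Aged replicate 2, the library with the smallest total of 764119 counts. Sirt1 was at 7.78 CPM there, from 6 counts (exact Poisson 95% interval 2.86 to 16.9 CPM), and the nearest aged library was at 19.2 CPM, a gap of 0.782 of the group's range. Sirt4 was at 14.3 CPM, from 11 counts (7.12 to 25.5 CPM), and the nearest aged library was at 9.39 CPM, a gap of 0.898 of the range. The Sirt1 interval does not reach the level of the nearest aged library, Aged replicate 1, but overlaps that library's own interval of 16.1 to 22.8 CPM. The Sirt4 interval reaches the level of the nearest aged library. The intervals cover counting error only. Without this library Sirt1 had a log2 fold change of -0.53 and an adjusted p of 0.0514 between Aged and Young by edgeR's quasi-likelihood test, so it was not called.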

How the results depend on the processing

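Against a count of 1 called sirtuin in Aged against Young, the count was 0 in fits of only these 2 groups (Sirt1 -0.63, adjusted p 0.0665), with counts thinned to the smallest total (-0.79, 0.0987), without Young replicates 1 and 5 (-0.42, 0.260), with at least 10 counts in every library, where Sirt1 itself was not tested, and at a threshold of 0.01, and 0 to 1 with one library left out. Against 1 in Aged+NR against Aged, it was 2 with library totals (Sirt1 added), 0 when thinned (Sirt3 0.68, adjusted p 0.0724), 0 at 0.01 and 0 to 1 with one library left out. In Aged+NR against Young it was 0 throughout. With the replicate block the counts stayed at 1, 1 and 0 (Sirt1 -0.66, adjusted p 0.0228, and Sirt3 0.59, adjusted p 0.0396), and 4 of 15 libraries correlated best with their own number.

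Log2 fold changes that turned sign were all of uncalled genes. In Aged+NR against Aged these were Sirt2 (0.041), Sirt4 (0.044) and Sirt6 (0.11) with library totals, which shift the median of all genes to 0.16, Sirt4 (0.0056) and Sirt6 (0.037) with at least 10 counts, and Sirt6 (0.095) when thinned. In Aged+NR against Young they were Sirt1 when thinned (0.051), and without Young replicates 1 and 5 Sirt1 (0.085), Sirt2 (-0.0082), Sirt4 (-0.073) and Sirt5 (0.26). With one library left out, Sirt6 ranged from -0.040 to 0.35 with age, Sirt4 from -0.25 to 0.032 and Sirt6 from -0.28 to 0.22 with NR, and Sirt4 from -0.085 to 0.32, Sirt5 from -0.15 to 0.12 and Sirt6 from -0.058 to 0.34 between Aged+NR and Young. The causes were not tested. By CPM per kilobase Sirt6 ranked 1, Sirt7 3, Sirt4 6 and Sirt5 7. With one library left out, 288 log2 fold changes kept direction and call, 14 lost the call and 13 turned sign, and under the other alternatives 191 kept both. Depth limits Sirt4 most, with 11 to 110 counts per library.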
